A study of Mus musculus with 8 samples.

Results

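Expression of 10 genes that encode chemokines and chemokine receptors guiding developing T cells through the thymus was described in mice after spaceflight. The genes were the ligands Ccl25, Cxcl12, Ccl19, Ccl21a, Ccl17 and Ccl22 and the receptors Ccr9, Cxcr4, Ccr7 and Ccr4. They were chosen by name, with 1 array probe set per gene (a probe set is the group of probes read as 1 value), taken as the brightest probe set annotated to that gene alone. This rule gave a value for 9 of the 10 genes, out of 19938 genes measured. Ccl21a was on 4 probe sets, each shared by 7 genes of its family, so no value was assigned to it and it was not analysed here.

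The samples were whole thymus lobes of C57BL/6NTac mice aged 8 weeks. In the spaceflight group, 4 mice had spent 13 days aboard the shuttle, and in the ground-control group 4 mice of matching age and sex lived in the same type of animal enclosure module. All mice were of 1 strain, the labels name no genetic change or drug, and each mouse gave 1 array. Values are log2 expression, so a difference of 1 is a doubling or halving, and every difference is spaceflight minus ground control.

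Chemokines are small secreted proteins that draw cells bearing the matching receptor. In the thymus, epithelial CCL25 and CXCL12 act through CCR9 and CXCR4 on immature thymocytes that enter the organ and populate its cortex. Thymocytes that pass positive selection gain CCR4 and then CCR7, which respond to CCL17 and CCL22 and to CCL19 and CCL21 in the medulla, where self-reactive cells are removed. Because whole lobes were measured, fewer cells of a type and less RNA per cell cannot be told apart.

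The arrays of spaceflight replicates 1 and 3 were unlike the remaining 6. Their values spanned an interquartile range of 2.22 over all genes, against 2.55 to 2.84 in the remaining arrays. Their correlation with those 6 was 0.956 to 0.986, where the 6 correlated with one another at 0.984 to 0.993. The difference between groups depended on brightness. When genes were put into 5 equal groups by level, the median difference was 0.10 in the dimmest group and -0.13 in the brightest, and it was -0.01 and 0.0010 without the 2 arrays. The difference of each of the 9 genes, each ratio and each gene list below is therefore given with and without them. Markers of double-positive thymocytes, the main cell type of the thymus, had a mean level of 10.76 to 10.96 in spaceflight arrays and 10.97 to 11.08 in ground-control arrays. Their median difference was -0.15, and -0.11 without the 2 arrays. All 7 measured markers, of 8 listed, were brighter than the median gene.

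None of the 9 measured chemokines and receptors passed the test in limma at an adjusted p under 0.05. Of all genes, 0.0802% passed it, 0.0652% lower (13 genes) and 0.015% higher (3 genes). The mean of every one of the 9 was lower in spaceflight, although that of Cxcl12 turned under other scalings of the arrays, and 53.5% of all genes were lower. Their median difference was -0.27, against -0.02 over all genes. At an unadjusted p under 0.05, 2 of the 9 (Ccl17 and Ccl22) were lower and 0 were higher, against 7.38% and 3.43% of all genes. In 3 genes (Ccl17, Ccr9 and Ccr4) every spaceflight array was below every ground-control array, as was the case for 4.28% of all genes. Centring the arrays on their 75th percentiles added 0.14 to every difference, so the direction of a value nearer to 0 than that depends on the scaling. Of the 9 genes, 8 lay among the 2 brighter of the 5 level groups, and Ccl17 lay in the middle one. The median difference of all genes was -0.13 in each of those 2 groups and -0.04 in the middle one. The shares and median over all genes given here are therefore not matched to the 9 genes in level. Without spaceflight replicates 1 and 3, 8 of the 9 were lower (53.4% of all genes), and the median difference was -0.12, against -0.01 over all genes.

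**Figure D1:**
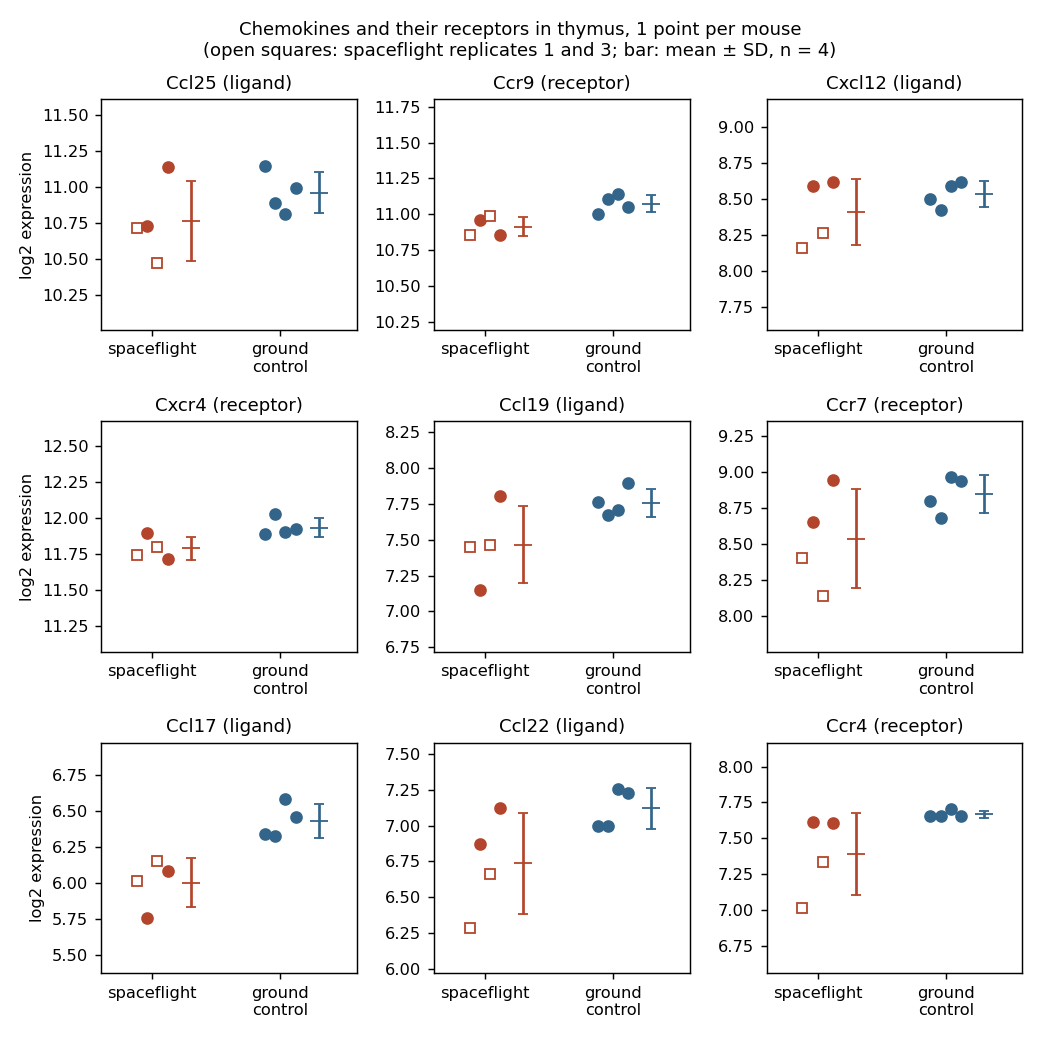
Log2 expression (vertical axes of equal span) of the 9 measured genes in the 4 spaceflight and 4 ground-control mice, 1 point per mouse, with mean ± SD beside the points. Open squares are spaceflight replicates 1 and 3. In Ccl17, Ccr9 and Ccr4 the groups did not overlap, and in Ccl25, Cxcl12, Ccr7, Ccl22 and Ccr4 both open squares lie below all other points, though in Ccl25 one of them only just.

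The mean of Ccl25, the epithelial ligand, was 12.8% lower in spaceflight, and the difference did not pass the test. Ccl25 read 10.72, 10.73, 10.47 and 11.14 in spaceflight replicates 1 to 4, against 11.14, 10.89, 10.81 and 11.00 in ground-control replicates 1 to 4. Of the spaceflight arrays, 3 were below the ground-control range and replicate 4 was within it, so the groups overlapped. The difference was -0.20 ± 0.14 (± SE, limma adjusted p = 0.581), with a 95% interval from -0.51 to 0.12, and it was -0.03 without spaceflight replicates 1 and 3. A second, much dimmer probe set of Ccl25 differed by -0.11.

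Ccr9, the receptor of CCL25 on immature thymocytes, showed a small difference between tight groups. It read 10.85, 10.96, 10.99 and 10.86 in spaceflight replicates 1 to 4, against 11.00, 11.11, 11.14 and 11.05 in ground-control replicates 1 to 4. The groups did not overlap, although the highest spaceflight array and the lowest ground-control array were nearly equal. The difference was -0.16 ± 0.10 (± SE, limma adjusted p = 0.532; 95% interval -0.38 to 0.06), and it was -0.17 without spaceflight replicates 1 and 3. The mean level of the double-positive thymocyte markers, given above, was also lower in each spaceflight array than in each ground-control array, and its part in the Ccr9 result was not tested.

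Ccl25 has 2 start sites in RefSeq (build GRCm38.p6, plus strand). Their promoter windows, 250 bases before to 50 after the start, are shown. Foxn1 is the transcription factor on which thymic epithelium depends, and it is known to drive Ccl25. Its values are given below, and its part in the Ccl25 result was not tested. Capitals mark matches on either strand to a pair of motifs that do not overlap each other. The first is GACGC, the core known to be bound by Foxn1. The second is TATAAA, a core promoter element.
Ccl25 upstream start, chr8:4324960-4325259: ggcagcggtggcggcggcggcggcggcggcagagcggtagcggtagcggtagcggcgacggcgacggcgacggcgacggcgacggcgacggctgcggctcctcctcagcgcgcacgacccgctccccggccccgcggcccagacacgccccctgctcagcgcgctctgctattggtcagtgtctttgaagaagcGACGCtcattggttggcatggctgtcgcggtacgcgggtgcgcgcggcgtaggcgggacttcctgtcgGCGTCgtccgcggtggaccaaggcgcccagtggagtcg
Ccl25 downstream start, chr8:4349338-4349637: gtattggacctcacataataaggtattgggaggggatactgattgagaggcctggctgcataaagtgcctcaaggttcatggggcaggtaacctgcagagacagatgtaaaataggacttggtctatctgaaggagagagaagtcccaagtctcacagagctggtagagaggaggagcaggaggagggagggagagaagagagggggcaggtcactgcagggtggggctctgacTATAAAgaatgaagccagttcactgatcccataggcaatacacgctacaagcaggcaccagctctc
The upstream window held 2 matches to GACGC, 1 on each strand, and the downstream window held 0 and had a TATAAA match 16 bases before the start. GACGC occurred in 27.2% and TATAAA in 13.6% of all 32851 promoter windows of this length. Among the windows of the other measured genes, that of Cxcl12 also held GACGC, 62 bases before the start. The arrays do not tell which Ccl25 start was used, and a match is a description of letters only.

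Foxn1 itself read 6.16, 6.47, 6.55 and 6.22 in spaceflight replicates 1 to 4, against 6.92, 6.91, 7.06 and 7.03 in ground-control replicates 1 to 4. The groups did not overlap, and the difference of -0.63 ± 0.12 (± SE) missed the threshold in limma (adjusted p = 0.0888; -0.64 and adjusted p = 0.125 without spaceflight replicates 1 and 3). Ccl25 differed by less than Foxn1 did in these arrays, and the difference between the 2 genes was not tested. Over all 8 cortical epithelium markers, of which Foxn1 is 1, the mean level was 8.00 to 8.33 in spaceflight arrays and 8.53 to 8.69 in ground-control arrays. Of these markers, 5 of 8 were lower in every spaceflight array than in any ground-control array, against 4.28% of all genes. In limma 0 passed, with 5 lower at an unadjusted p under 0.05, against 7.38% of all genes. Foxn1 is among the 5 in both counts. The list was chosen with earlier results of these data known, so the counts are a description only. The median difference of the 8 markers was -0.54, with 7 lower and 1 higher. Without spaceflight replicates 1 and 3 the median was -0.38, with 5 lower and 3 higher. The part of these markers in the Ccl25 result was not tested.

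Cxcl12, the ligand that stromal and epithelial cells of the cortex display, had a lower mean in spaceflight that was carried by replicates 1 and 3. It read 8.16, 8.59, 8.27 and 8.62 in spaceflight replicates 1 to 4, against 8.50, 8.42, 8.59 and 8.62 in ground-control replicates 1 to 4. Spaceflight replicates 1 and 3 were below the other 6 arrays, and replicates 2 and 4 were at the upper end of the ground-control range. The difference was -0.12 ± 0.13 (± SE, limma adjusted p = 0.693; 95% interval -0.40 to 0.16). Its sign turned without the 2 arrays, where it was 0.07.

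Cxcr4, the receptor of CXCL12 and a co-stimulator of early thymocytes at beta-selection, read 11.75, 11.90, 11.80 and 11.72 in spaceflight replicates 1 to 4. In ground-control replicates 1 to 4 it read 11.89, 12.03, 11.90 and 11.92. Of the spaceflight arrays, 3 were below the ground-control range and replicate 2 was inside its lower end. The difference was -0.14 ± 0.10 (± SE, limma adjusted p = 0.566; 95% interval -0.36 to 0.07), and it was -0.13 without spaceflight replicates 1 and 3.

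In the axis of CCR7, the receptor that takes selected thymocytes into the medulla, ligand and receptor had like differences but unlike arrays behind them. Ccl19, a ligand of CCR7, read 7.45, 7.15, 7.46 and 7.80 in spaceflight replicates 1 to 4, against 7.76, 7.67, 7.70 and 7.89 in ground-control replicates 1 to 4. Spaceflight replicate 2 was the lowest array and replicate 4 was within the ground-control range. The difference was -0.29 ± 0.14 (± SE, limma adjusted p = 0.466; 95% interval -0.59 to 0.0088), and it was -0.28 without spaceflight replicates 1 and 3. It was -0.19 without replicate 2 and -0.40 without replicate 4. Ccl19 had 5 probe sets with the same annotated accessions, whose differences ran from -0.29 to -0.25. A pair of them read the same in every array, so the 5 are not separate readings. Near-identical copies of this gene exist in the mouse genome, so its value is uncertain as to the copy.

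Ccr7 read 8.41, 8.66, 8.14 and 8.95 in spaceflight replicates 1 to 4, against 8.80, 8.68, 8.97 and 8.94 in ground-control replicates 1 to 4. Spaceflight replicates 1 and 3 were the 2 lowest arrays, and replicate 4 was near the top of the ground-control range. The difference was -0.31 ± 0.16 (± SE, limma adjusted p = 0.487; 95% interval -0.66 to 0.04) with all arrays and -0.05 without those 2. Markers of mature single-positive thymocytes, the cells that carry CCR7, had a mean level of 7.41 to 7.74 in spaceflight arrays and 7.51 to 7.77 in ground-control arrays, with 6 of 7 measured, and Foxp3 alone dimmer than the median gene. Their median difference was -0.08, and -0.0056 without spaceflight replicates 1 and 3. Their part in the result was not tested.

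Among the 9 genes, Ccl17 had the largest difference and the smallest p. This ligand of CCR4, made by dendritic cells and medullary epithelium, was 25.6% lower in spaceflight (0.744-fold). It read 6.02, 5.76, 6.15 and 6.09 in spaceflight replicates 1 to 4, against 6.35, 6.33, 6.59 and 6.46 in ground-control replicates 1 to 4. Every spaceflight array was below every ground-control array, and the lowest was replicate 2, which is not one of the 2 arrays that stood apart. The difference was -0.43 ± 0.12 (± SE), with a 95% interval from -0.69 to -0.17. It did not pass over all genes (limma adjusted p = 0.280), since 1.37% of genes had a smaller p. Without spaceflight replicates 1 and 3 the difference was -0.51 (limma adjusted p = 0.330).

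Ccl22, the second ligand of CCR4, read 6.29, 6.87, 6.66 and 7.12 in spaceflight replicates 1 to 4, against 6.998, 6.99, 7.25 and 7.23 in ground-control replicates 1 to 4. Spaceflight replicates 1 and 3 were the lowest 2 arrays, and replicate 4 was within the ground-control range. The difference was -0.38 ± 0.16 (± SE, limma adjusted p = 0.446; 95% interval -0.74 to -0.02). It was -0.12 without spaceflight replicates 1 and 3, so the 2 ligands, which were alike with all arrays, stood apart once those arrays were left out. That contrast was not tested.

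Ccr4, their receptor, read 7.02, 7.61, 7.33 and 7.61 in spaceflight replicates 1 to 4, against 7.65, 7.65, 7.71 and 7.65 in ground-control replicates 1 to 4. The groups did not overlap, but spaceflight replicates 2 and 4 were only just below the ground-control mice, and replicates 1 and 3 carried most of the difference. It was -0.27 ± 0.14 (± SE, limma adjusted p = 0.477; 95% interval -0.57 to 0.03) with all arrays and -0.06 without those 2.

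Ccl17 and Ccl22 are near neighbours on chromosome 8, and their promoter windows (RefSeq, GRCm38.p6, plus strand) are shown to set the 2 ligands side by side. Capitals mark the half-sites TTC and GAA, in that order and 4 bases apart, with the bases between them. STAT6, a transcription factor, prefers this spacing, and the motif reads the same on both strands. The part of STAT6 in the result of either ligand was not tested.
Ccl17, chr8:94810203-94810502: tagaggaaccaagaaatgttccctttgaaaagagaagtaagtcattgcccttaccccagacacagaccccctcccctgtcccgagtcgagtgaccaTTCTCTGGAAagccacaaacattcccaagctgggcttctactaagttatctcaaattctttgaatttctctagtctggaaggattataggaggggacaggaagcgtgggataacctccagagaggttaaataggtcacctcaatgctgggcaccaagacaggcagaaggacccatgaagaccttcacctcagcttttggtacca
Ccl22, chr8:94745434-94745733: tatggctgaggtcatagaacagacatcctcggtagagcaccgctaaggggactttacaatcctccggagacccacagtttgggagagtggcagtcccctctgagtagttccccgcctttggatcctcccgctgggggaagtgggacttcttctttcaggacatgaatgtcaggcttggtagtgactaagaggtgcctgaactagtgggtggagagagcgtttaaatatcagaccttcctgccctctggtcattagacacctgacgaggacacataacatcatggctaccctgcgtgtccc
The Ccl17 window held 1 match, 154 bases before the start, and the Ccl22 window held 0 matches, where 6.95% of all windows held 1 or more. The lack of a match says only that these letters are not in this window. RefSeq places the first base of Ccl17 at chr8:94809380, upstream of the Ccl17 window, which therefore does not cover that end of the gene.

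Dendritic cell markers had a mean level of 6.07 to 6.26 in spaceflight arrays and 6.22 to 6.35 in ground-control arrays. Of the 8, 6 were lower in spaceflight and Cd209a had the smallest p (difference -0.46, limma adjusted p = 0.287; -0.39 without spaceflight replicates 1 and 3), while Zbtb46, Xcr1, Clec9a, Siglech and Cd209a were dimmer than the median gene. The median difference of the dendritic cell list was -0.07, and -0.09 without the 2 arrays, with 6 of 8 lower there too. All 10 medullary epithelium markers were lower in spaceflight with all arrays, and 8 of 10 were without spaceflight replicates 1 and 3, where their median difference was -0.13, against -0.28 with all arrays. They had a mean level of 6.80 to 7.38 in spaceflight arrays and 7.31 to 7.56 in ground-control arrays, and Tnfrsf11a and Cd80 were dimmer than the median gene. The part of either cell type in the Ccl17 and Ccl22 results was not tested.

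**Figure D2:**
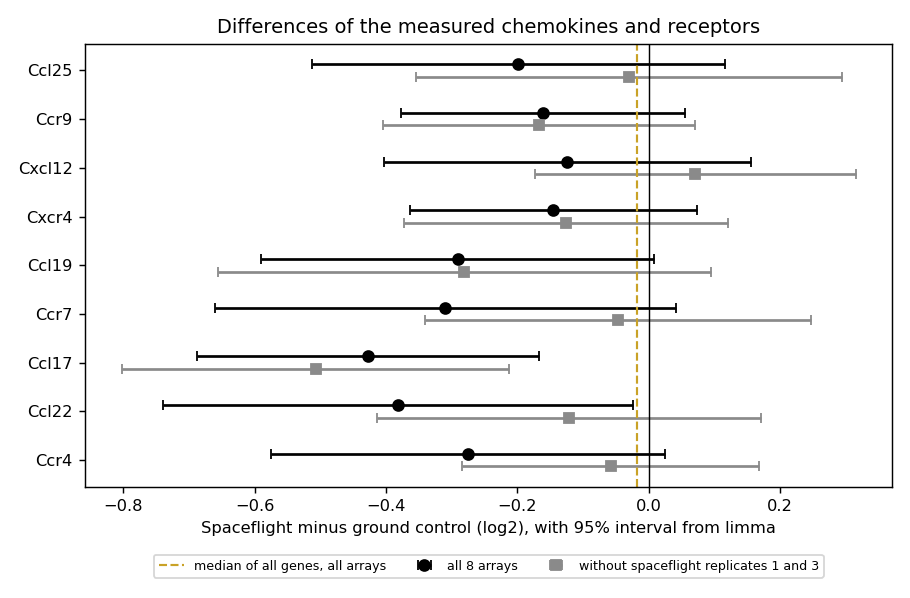
Spaceflight minus ground control (log2, horizontal axis) for the 9 measured genes, with 95% intervals from limma, for all 8 arrays (black circles) and without spaceflight replicates 1 and 3 (grey squares). The dashed line is the median of all genes with all arrays, -0.02. Ccl17 alone has both intervals wholly below 0, while Ccl25, Cxcl12, Ccr7, Ccl22 and Ccr4 move towards 0 or past it without the 2 arrays.

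The 9 genes thus divided by the arrays behind their differences. In Ccl25, Cxcl12, Ccr7, Ccl22 and Ccr4, spaceflight replicates 1 and 3 were both below all other 6 arrays, as they were for 21.2% of all genes. In Ccl25, however, replicate 1 was only just below replicate 2. The Ccl25 difference was -0.18 without spaceflight replicate 1 and -0.32 without spaceflight replicate 4. In Ccr9, Cxcr4, Ccl19 and Ccl17 the difference was about as large without spaceflight replicates 1 and 3 as with them. That of Ccl19 depended on other single arrays, as given above. Each of these 4 genes still missed the threshold without spaceflight replicates 1 and 3 (limma adjusted p = 0.804, 0.883, 0.781 and 0.330 in that order). The size of some also depended on the scaling of the arrays. With all arrays centred on their 75th percentiles, these 4 differed by -0.02, -0.0055, -0.15 and -0.29 in that order. With repeated quantile normalization they differed by -0.03, -0.07, -0.15 and -0.36.

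Whether receptor and ligand differed unequally was asked for 5 pairs, by taking the log2 receptor value minus the log2 ligand value in each mouse. Ligands had a median difference of -0.29 (5 genes) and receptors one of -0.22 (4 genes), and these were -0.12 and -0.09 without spaceflight replicates 1 and 3. No pair passed the test of a changed receptor-to-ligand ratio. The exact two-sided permutation test over the 70 splits of the arrays, whose smallest possible p is 0.0286, gave adjusted p-values over the 5 pairs from 0.857 to 0.971. A single pair at that smallest p would have an adjusted p of 0.143, and 3 pairs would have to reach it for any to pass, so the test could not have called 1 changed pair on its own.

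With the ground-control mean set to 0, the log2 ratio of Ccr9 to Ccl25 was 0.04 ± 0.33 in spaceflight (mean ± SD, n = 4), against an SD of 0.20 in ground control (exact permutation p = 0.886). That of Cxcr4 to Cxcl12 was -0.02 ± 0.22 in spaceflight, against an SD of 0.14 in ground control (exact permutation p = 0.771). That of Ccr7 to Ccl19 was -0.02 ± 0.35 in spaceflight, against an SD of 0.12 in ground control (exact permutation p = 0.971). The changes in these 3 ratios without spaceflight replicates 1 and 3 were -0.14, -0.20 and 0.23 in that order (exact permutation p = 0.600, 0.200 and 0.133), so the small changes with all arrays are means over mice that differed in direction.

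The ratio of Ccr4 to Ccl17 was -0.24, 0.62, -0.05 and 0.28 in spaceflight replicates 1 to 4, against 0.07, 0.09, -0.12 and -0.04 in ground-control replicates 1 to 4. Spaceflight replicates 2 and 4 were above all ground-control mice and replicate 1 was below them, and the change was 0.15 ± 0.19 (± SE, exact permutation p = 0.486). Without spaceflight replicates 1 and 3 it was 0.45 (exact permutation p = 0.0667, the smallest that 2 against 4 mice allow). The ratio of Ccr4 to Ccl22 differed by 0.11 ± 0.09 (± SE, exact permutation p = 0.171), the smallest p among the 5 pairs, with overlapping groups, and by 0.064 without spaceflight replicates 1 and 3.

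**Figure D3:**
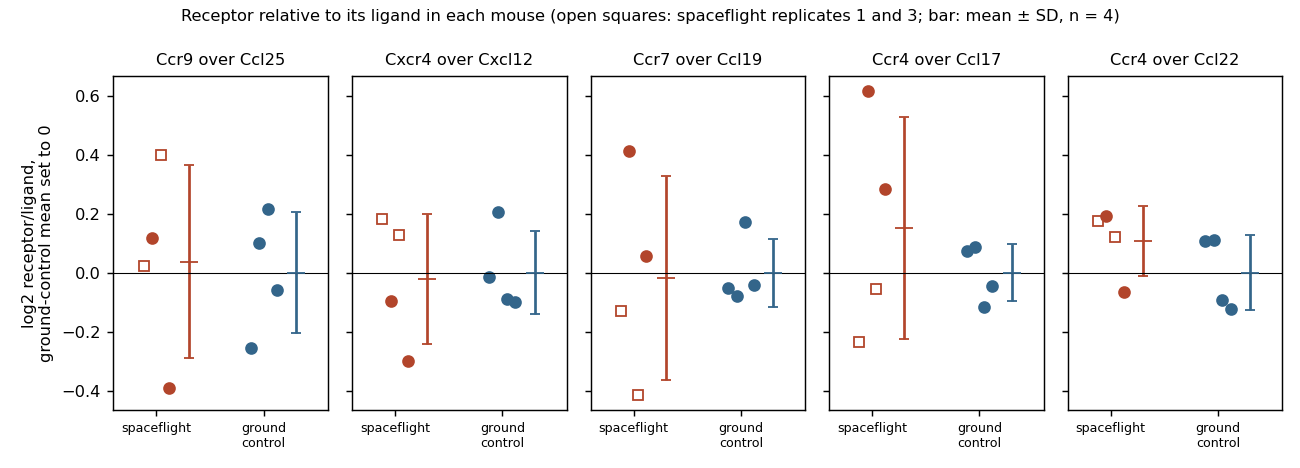
Log2 receptor-to-ligand ratio (vertical axis, ground-control mean set to 0) for 5 pairs in the 4 spaceflight and 4 ground-control mice, 1 point per mouse, with mean ± SD. Open squares are spaceflight replicates 1 and 3. The groups overlap in every pair, and in the ratio of Ccr4 to Ccl17 the spaceflight mice run from -0.24 to 0.62, while the ground-control mice run from -0.12 to 0.09.

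Among the other chemokine ligands, 30 of 31 listed genes were measured, 1 fell and 0 rose over all genes tested. At an unadjusted p under 0.05, 7 of the 30 were lower and 0 higher, against 7.38% and 3.43% of all genes. In 6 of the 30 every spaceflight array was below every ground-control array, against 4.28% of all genes. The median difference of the 30 ligands was -0.21, and 22 of 30 were lower. Without spaceflight replicates 1 and 3 the median was -0.14, and 25 of 30 were lower. The gene that fell was Cxcl10, an interferon-induced ligand of CXCR3. It read 7.01, 7.58, 7.34 and 7.82 in spaceflight replicates 1 to 4, against 9.09, 8.87, 8.97 and 8.81 in ground-control replicates 1 to 4 (difference -1.50 ± 0.16 SE, limma adjusted p = 0.00506; -1.24 and adjusted p = 0.00984 without spaceflight replicates 1 and 3). The next 3 by p did not pass. They were Ccl12, a monocyte attractant in the mouse (-0.73, limma adjusted p = 0.110), Cxcl16, the ligand of CXCR6 (-0.63, adjusted p = 0.280), and Ccl11, the eosinophil attractant eotaxin (-0.55, adjusted p = 0.309). In these 3 genes the groups did not overlap, and without spaceflight replicates 1 and 3 the differences were -0.54, -0.29 and -0.27. Of the 3, Ccl12 alone was dimmer than the median gene.

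Of the other chemokine receptors, 14 of 15 were measured and 0 passed in limma. At an unadjusted p under 0.05, 1 of the 14 was lower and 0 were higher, against 7.38% and 3.43% of all genes. Their median difference was -0.08, and it was 0.05 without spaceflight replicates 1 and 3. The smallest p belonged to Ccr3, the eotaxin receptor (-0.37, limma adjusted p = 0.331), followed by Cxcr1 (0.36), Ccr8 (-0.27) and Ccr1l1 (0.23). With those 2 spaceflight arrays left out, Ccr3 differed by -0.36, Cxcr1 by 0.08, Ccr8 by -0.03 and Ccr1l1 by -0.03. Of these, Ccr3, Cxcr1 and Ccr1l1 were dimmer than the median gene.

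The 5 atypical receptors, which lack the usual chemokine receptor signalling, also had 0 calls in limma. At an unadjusted p under 0.05, 0 of them were lower or higher, against 7.38% and 3.43% of all genes. Ackr4, which removes CCL19, CCL21 and CCL25, read 6.77, 7.22, 6.94 and 6.92 in spaceflight replicates 1 to 4, against 6.77, 7.11, 6.92 and 7.01 in ground-control replicates 1 to 4. Its difference was 0.0093 ± 0.13 (± SE), with a 95% interval from -0.27 to 0.28. Ackr3, which scavenges CXCL12, differed by -0.17, Ccrl2 by -0.15, Ackr1 by 0.08 and Ackr2 by 0.11. Leaving out spaceflight replicates 1 and 3, Ackr4 differed by 0.12, Ackr3 by -0.06, Ccrl2 by -0.12, Ackr1 by 0.29 and Ackr2 by -0.03, and the median of the 5 was -0.03, against 0.0093 with all arrays. All of the 5 but Ackr4 were dimmer than the median gene.

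**Figure D4:**
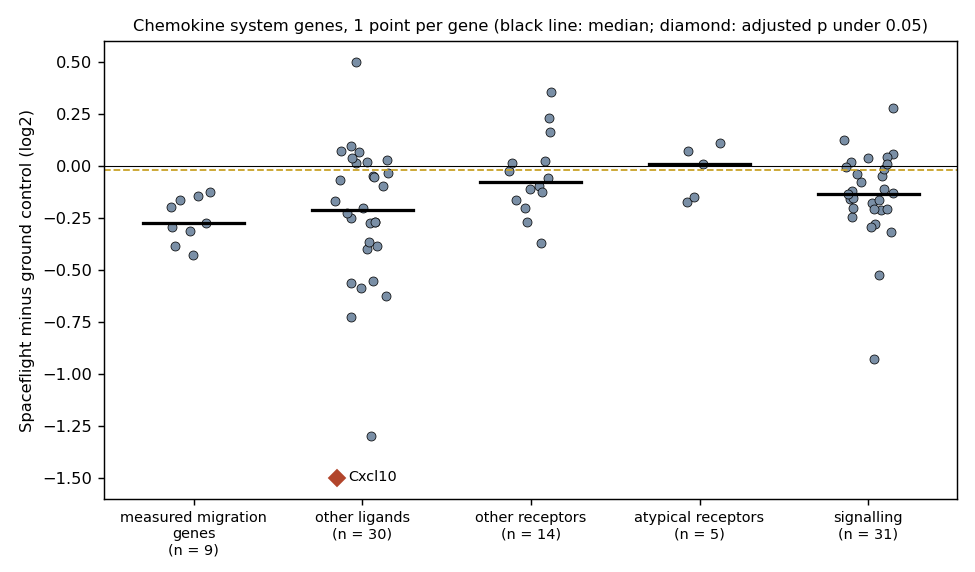
Spaceflight minus ground control (log2, vertical axis), 1 point per gene, for the 9 measured migration genes and for the other ligands, other receptors, atypical receptors and signalling genes; black lines are medians, the dashed line is the median of all genes and the diamond is a gene at an adjusted p under 0.05. The 9 genes lie between -0.43 and -0.12, inside the spread of the other ligands, of which Cxcl10 alone passed.

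Genes that carry chemokine receptor signals to the cell's movement had a median difference of -0.13, with 31 of 33 measured. In limma 0 passed. At an unadjusted p under 0.05, 4 of the 31 were lower and 0 higher, against 7.38% and 3.43% of all genes, which were not matched in level. Gnai1, an inhibitory G protein subunit, differed by -0.93 (limma adjusted p = 0.301), Tagap by -0.52, Arrb1, an arrestin, by -0.31 and Tiam1, an activator of Rac, by -0.29. Without spaceflight replicates 1 and 3 the median of the list was 0.01, and 14 of 31 genes were lower. There Gnai1 differed by -0.60, Tagap by -0.15, Arrb1 by -0.16 and Tiam1 by -0.28.

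Of adhesion and guidance genes, 12 of 14 were measured, with a median difference of -0.20 that was -0.0032 without spaceflight replicates 1 and 3. In limma 0 passed. At an unadjusted p under 0.05, 2 of the 12 were lower and 1 higher, against 7.38% and 3.43% of all genes, which were not matched in level. Icam1, an adhesion ligand of LFA-1, differed by -0.50 (limma adjusted p = 0.326), the LFA-1 subunit Itgal by -0.35, the integrin subunit Itga4 by 0.33 and Itgb1 by -0.23. Without the 2 arrays Icam1 differed by -0.29, Itgal by -0.20, Itga4 by 0.24 and Itgb1 by -0.15.

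Besides Foxn1, the regulators listed for the ligands were Aire, the medullary factor for tissue antigens, Ltb and its receptor Ltbr, which drive medullary epithelium, and Relb, a nuclear factor downstream of that receptor. Of these 5 regulators, 0 passed in limma. Foxn1 and Relb were lower at an unadjusted p under 0.05, as were 7.38% of all genes. Aire differed by -0.10, Ltb by -0.13, Ltbr by -0.35 and Relb by -0.40 (limma adjusted p = 0.395). In the fit without spaceflight replicates 1 and 3, Aire differed by -0.11, Ltbr by -0.03 and Relb by -0.19, and the sign of Ltb turned to 0.27.

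The genes most like each of the 9 over the 8 arrays, by Pearson's r of the log2 values, are given as a description, since a close match is easily found among 19938 genes over 8 arrays. Ccr7 was most like Rftn1 (r = 0.997) and Tnip1 (r = 0.996), Ccl22 like Ndufb7 (r = 0.995) and Ccr4 like Sike1 (r = 0.991). Cxcl12 was most like Psmb2 (r = 0.990). Ccl25 was most like Nxt1 (r = 0.976) and Ubd (r = 0.975), Ccr9 like Acacb (r = 0.976), Cxcr4 like Slc16a1 (r = 0.962), Ccl19 like Tspan32 (r = 0.963) and Ccl17 like Slc35b2 (r = 0.973). The 4 highest of these matches all belong to genes in which spaceflight replicates 1 and 3 were the lowest arrays.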

How the data were processed

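The deposited values are log2 expression per probe set on Affymetrix arrays, 1 array per mouse, and the submitters' processing notes name RMA and limma. For versions, genome build and filters, nothing was given in the sources used. Per the labels' protocols, RNA was extracted with Trizol and 6 µg was made into biotin-labelled cRNA. The table held 35557 rows. The lowest unbroken run of identifiers (6614 rows, 0 annotated) was taken for controls and left out, a choice made on the data. Of 28943 probe sets, 21789 had 1 gene, 1621 several and 5533 none. Symbols were updated by Entrez identifier with RefSeq (GRCm38.p6; 21698 matched), and the single-gene probe set of highest mean stood for each of 19938 genes.

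Groups were compared with limma 3.58.1 (R 4.3.3; lmFit, eBayes, two-sided, Benjamini-Hochberg over all genes, threshold 0.05, no replicate block), tested on simulated data. Pairs were compared by exact permutation, adjusted over 5 pairs. The genes and lists were chosen with earlier results of these data known. All 10 genes are named, and from each list of related genes the 4 of smallest p (all of a list of at most 5). Cell type markers are given as lists, and Zbtb46, Xcr1, Clec9a, Siglech, Tnfrsf11a, Cd80 and Foxp3 are named as dim markers only and Cd209a for its p, after the values were seen. The promoter motifs shown (Foxn1, STAT6 and TATA) were picked after a wider set, which also held NF-kB, AP-1, E-box, IRF, octamer, ETS and CACCC patterns and another STAT spacing, had been searched in the same windows and the matches seen, so that a match was found is not evidence. All 8 arrays differed from one another, and their small number limits the precision. Alternatives were other centring, repeated quantile normalization, array weights, arrays left out, the replicate block, other probe set or row choices, a filter on dim genes and another variance prior.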

Additional observations from a re-analysis of the deposited data

Results flagged for a closer look

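Of 28 groups of 4 values examined (9 genes and 5 ratios in each of 2 groups), 2 had a value far from the other 3 by Dixon's test, which chance gives in about 1 of 20 groups. Ccr4 in ground-control replicate 3 was 7.71, while the other 3 ground-control mice lay within 0.0013 of one another. The log2 ratio of Ccr7 to Ccl19 in ground-control replicate 3 was 0.17 above the ground-control mean. Without that mouse the Ccr4 difference was -0.26 and the change in the ratio of Ccr7 to Ccl19 was 0.038, against -0.27 and -0.02 with all arrays.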

How the results depend on the processing

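The 9 measured genes had 0 calls under each of the 19 alternatives. The difference stayed below 0 for 8 of them, and that of Cxcl12 was 0.016 with arrays centred on their 75th percentile, 0.0077 with repeated quantile normalization and 0.071 without spaceflight replicates 1 and 3. Centring on the 75th percentile moved the median of all genes to 0.12, against -0.02. All 9 genes lay below that median as in the main fit, by construction, since such centring shifts every difference equally. With repeated quantile normalization, 8 of the 9 lay below the median of all genes, and so did 8 without spaceflight replicates 1 and 3. Ccl17 ran from -0.51 to -0.29. With single arrays left out, the difference ran from -0.32 to -0.10 in Ccl25, -0.19 to -0.04 in Cxcl12, -0.45 to -0.18 in Ccr7, -0.40 to -0.19 in Ccl19, -0.51 to -0.23 in Ccl22 and -0.35 to -0.15 in Ccr4. Over all genes, 16 were called (13 lower, 3 higher), against 6 with that centring (3 lower, 3 higher), 25 among genes above the median level, 8 when all rows were kept, 16 (8 lower, 8 higher) without spaceflight replicates 1 and 3, and 6 to 15 with single arrays left out (9 and 10 without spaceflight replicate 1 or 3, 9, 8, 6 and 7 without ground-control replicate 1, 2, 3 or 4). With the replicate block 20 genes were called, 0 of them among the 9, and the changes in ratio are the same with it by construction. Nothing shows that the numbers pair the mice: deviations of same-numbered mice from their group means correlated at -0.30 to 0.24. Leaving out single mice gave changes in the log2 ratio from -0.083 to 0.18 for Ccr9 over Ccl25, -0.089 to 0.071 for Cxcr4 over Cxcl12, -0.16 to 0.11 for Ccr7 over Ccl19, -0.0022 to 0.28 for Ccr4 over Ccl17 and 0.065 to 0.16 for Ccr4 over Ccl22. Ccr9 over Ccl25 was -0.0065 with probe sets averaged and -0.14 without spaceflight replicates 1 and 3, where Cxcr4 over Cxcl12 was -0.20 and Ccr7 over Ccl19 was 0.23. The cause of these turns of sign was not tested. With 1 array left out, the adjusted p of the 5 ratios ran from 0.571 to 1, where the smallest unadjusted p possible is 0.0286. With 2 spaceflight mice against 4 it is 0.0667, so no ratio could pass there.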
